A study of Drosophila melanogaster with 3 samples.

Results

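The eukaryotic translation initiation factor genes of Drosophila melanogaster were examined for binding of NfI, the fly protein of the nuclear factor I family, whose members bind DNA. They were taken as every protein-coding gene of the Ensembl annotation whose symbol starts with eIF, which gave 44 of 13945 genes. By symbol, 3 encode subunits of eIF2, 5 of eIF2B, 16 belong to eIF3, 13 to eIF4 and 7 to other factors (eIF1, eIF1A, eIF2A, eIF2D, eIF5, eIF5B and eIF6). Binding had been profiled by chromatin immunoprecipitation and sequencing (ChIP-seq) in whole embryos of both sexes, collected at 12 to 24 h, from 1 transgenic line that makes NfI with green fluorescent protein at its C terminus. All 3 libraries, biological replicates 2, 3 and 4, belong to this single group and share 1 control alignment, so the comparisons are between genes and between replicates. The description field calls the samples input controls, whereas the assay and antibody fields name a ChIP for NfI, and they were treated as ChIP libraries. The 12 to 24 h come from the source label, and a separate age label that lies outside this collection was set aside. Cell types are mixed in whole embryos, RNA was not measured, and with no read counts in the files the sequencing depth is unknown.

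Translation initiation factors bring the small ribosomal subunit, the initiator tRNA and an mRNA together at a start codon. eIF2 carries the initiator tRNA and eIF2B recharges it with GTP, eIF3 is a scaffold on the small subunit, and the eIF4 group recognises the mRNA cap and unwinds the leader. eIF1 and eIF1A guard the choice of start codon, eIF5 and eIF5B act in GTP hydrolysis and subunit joining, and eIF6 keeps the large subunit from joining too early. The promoters of such widely used genes in flies often carry the DNA replication-related element, TATCGATA, which binds the factor DREF. Vertebrate nuclear factor I proteins bind a palindrome built from TTGGC and its reverse complement.

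The sequence under the strongest summit (the point of highest signal in a peak) is printed to show the DNA at the points of binding, for 1 gene each of 4 groups, on the gene's own strand. Each stretch reaches up to 100 bp to either side of the summit of the optimal peak list, and the one at eIF1 was shortened where an annotated untranslated region of its neighbour begins. Capitals mark matches, on either strand, to any of the motifs listed further on, among them TTGGCA and the element TATCGATA. The dm6 positions are chr3L:12526922-12527122 on the minus strand for eIF2beta, chr2L:5052414-5052614 on the minus strand for eIF3h, chr3R:24109106-24109306 on the minus strand for eIF4EHP and chr3L:3222961-3223105 on the plus strand for eIF1.
eIF2beta: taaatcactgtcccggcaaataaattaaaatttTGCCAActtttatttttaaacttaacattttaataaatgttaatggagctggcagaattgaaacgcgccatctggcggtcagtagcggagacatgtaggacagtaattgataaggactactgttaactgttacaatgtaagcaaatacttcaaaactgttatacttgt
eIF3h: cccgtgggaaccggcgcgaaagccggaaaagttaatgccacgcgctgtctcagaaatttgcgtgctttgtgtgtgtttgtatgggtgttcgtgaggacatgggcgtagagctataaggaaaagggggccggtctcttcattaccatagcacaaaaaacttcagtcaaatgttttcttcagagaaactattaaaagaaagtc
eIF4EHP: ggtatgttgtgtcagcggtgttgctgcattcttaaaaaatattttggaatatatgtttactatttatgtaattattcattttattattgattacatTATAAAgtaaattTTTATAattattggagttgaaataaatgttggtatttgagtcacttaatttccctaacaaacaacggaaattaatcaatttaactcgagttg
eIF1: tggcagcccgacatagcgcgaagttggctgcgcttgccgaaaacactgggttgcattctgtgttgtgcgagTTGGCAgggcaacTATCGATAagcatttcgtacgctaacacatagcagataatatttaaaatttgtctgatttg
The summit is base 101 of the first 3 sequences and base 45 of the last. The eIF4EHP sequence is AT-rich, with a GC content of 24.9%, and holds TATAAA once on each strand. The eIF1 sequence, with a GC content of 46.2%, holds TTGGCA and TATCGATA side by side, and the eIF3h sequence holds none of them.

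In the optimal list, 17 of the 44 initiation factor genes (38.6%) had a summit within 500 bp of one of their transcription start sites (TSSs), against 26.1% of all protein-coding genes. This list holds the 5806 peaks that the authors kept by the irreproducible discovery rate. A summit in it need not be listed in every replicate. Of all protein-coding genes with an optimal summit, 83.3% had a summit in the full list of every replicate. The factors outside the named complexes stood highest, with 6 of 7 genes: eIF1, eIF1A, eIF2A, eIF2D, eIF5B and eIF6 had a summit, and eIF5 had none. This group has a median of 2 TSS positions per gene, and each named complex a median of 1. Over all protein-coding genes, 41.8% with 2 or more positions and 20.5% with 1 had an optimal summit. Of eIF3, 5 of 16 genes had one (eIF3a, eIF3b, eIF3c, eIF3h and eIF3m), and of eIF4, 4 of 13 (eIF4A, eIF4E1, eIF4EHP and eIF4G2). In eIF2 only the beta subunit had one (1 of 3), and in eIF2B only the gamma subunit (1 of 5). The number of genes per complex is small, so 1 gene more or less moves a share by a wide margin. Genes and peaks were counted without a test, because the genes share 1 set of libraries and are not replicates.

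**Figure D1:**
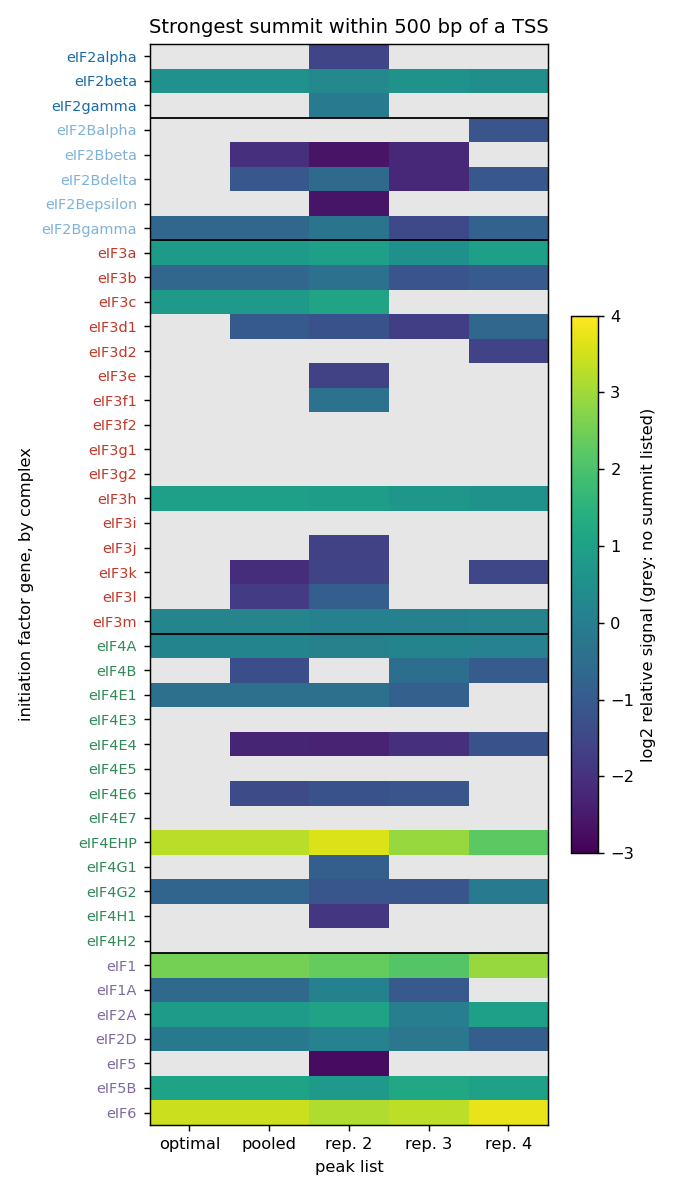
Peak lists that held a summit close to a start site of each of the 44 initiation factor genes (500 bp or less), grouped by complex. Columns are the 5 peak lists, and grey marks genes without a listed summit. The shade gives, on a log scale, the summit signal divided by the median signal of the strongest peaks of the same list. The group of other factors is filled across most lists, while 8 genes, all of eIF3 or eIF4, are empty in every list.

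The lists before that selection hold 30000 peaks each, background included, and are more permissive. The list pooled over replicates had a summit at 25 of the 44 genes (56.8%), against 50.3% of all protein-coding genes. The full list of replicate 2 had one at 33 genes (75.0%, against 54.7%), that of replicate 3 at 22 (against 47.6%) and that of replicate 4 at 21 (47.7%, against 43.3%). The gap between these genes and all genes was thus widest in replicate 2 and only a few percentage points in the others. When each replicate was limited to its 5806 strongest peaks, the number of genes with a summit was 19 in replicate 2 (43.2%, against 29.2%), 12 in replicate 3 (27.3%, against 21.6%) and 13 in replicate 4 (29.5%, against 22.5%). A summit among the strongest peaks of every replicate was found at 10 genes (22.7%, against 15.4%), in 2 replicates at eIF2Bgamma and eIF2D, in 1 replicate at 10 genes and in none at 22. Replicate 4 has 5138 peaks at a q-value of 0.01 or lower, so its strongest set also holds peaks above that limit. Those of eIF2Bgamma and eIF3d1 in replicate 4 are among them.

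The 10 genes with such a summit in all 3 replicates were eIF1, eIF2A, eIF2beta, eIF3a, eIF3h, eIF3m, eIF4A, eIF4EHP, eIF5B and eIF6. Of the 17 genes with an optimal summit, 14 (82.4%) were listed in the full list of every replicate, against 83.3% of all genes with an optimal summit. Only eIF3c was listed in replicate 2 and in neither other replicate (1 of 17, 5.88%, against 2.00%).

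**Figure D2:**
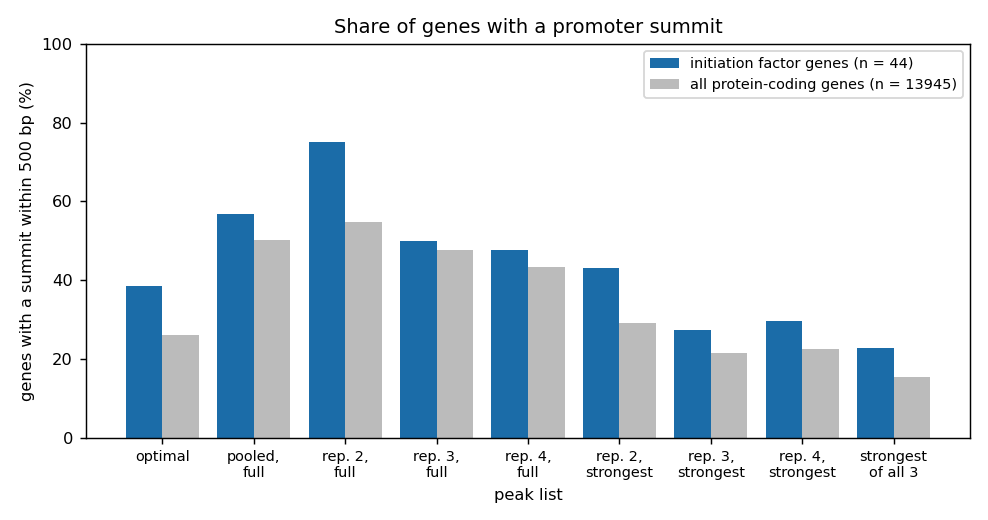
Share (%) of genes that have a summit near a start site (500 bp or less) in each peak list and strongest set, for the 44 initiation factor genes and for all 13945 protein-coding genes. The initiation factor genes stand above all genes in each list, for example at 47.7% against 43.3% in the full list of replicate 4 and at 75.0% against 54.7% in that of replicate 2.

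The strongest promoter summit of the set lay at eIF6 (FBgn0034915), 94 bp upstream of its TSS at chr2R:23850301 on the minus strand. Signal is given below as relative signal, the signal of the strongest summit within 500 bp divided by the median signal of the 5806 strongest peaks of the same list. At eIF6 replicate 2 gave 9.01, replicate 3 gave 9.93 and replicate 4 gave 13.7 (10.9 ± 2.51, SD, n = 3). All 3 replicates thus placed it many times above a typical strong peak, and the peak ranked 31 in the optimal list. The same summit lay 65 bp from the TSS of the antisense RNA gene asRNA:CR45928, inside that gene's exon and inside an intron of ytr. It therefore cannot be assigned to eIF6 alone.

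eIF4EHP (FBgn0053100, chr3R:24063077-24108960, minus strand) followed. It encodes a cap-binding relative of eIF4E that does not bind eIF4G and represses translation of selected mRNAs in the fly embryo. Its relative signal was 12.5, 7.53 and 4.67 in replicates 2, 3 and 4 (8.25 ± 3.98, n = 3), with an optimal rank of 36. The replicates differed by more here than at eIF6, and replicate 2 was the highest while it was the lowest at eIF6. The summit lay 246 bp upstream of eIF4EHP and 130 bp upstream of CG18428, which was therefore the nearer gene. It is the AT-rich sequence printed above.

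eIF1 (FBgn0035423, chr3L:3223341-3224650, plus strand) had a relative signal of 5.07 in replicate 2, 4.35 in replicate 3 and 7.64 in replicate 4 (5.69 ± 1.73, n = 3), with an optimal rank of 130. This summit was 336 bp upstream of eIF1 but 45 bp upstream of RpL28, a gene for a protein of the large ribosomal subunit that is read from the opposite strand. A second, weaker optimal summit (rank 2923) lay 124 bp upstream of eIF1, so the gene keeps a summit of its own when each summit is given only to its nearest TSS.

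**Figure D3:**
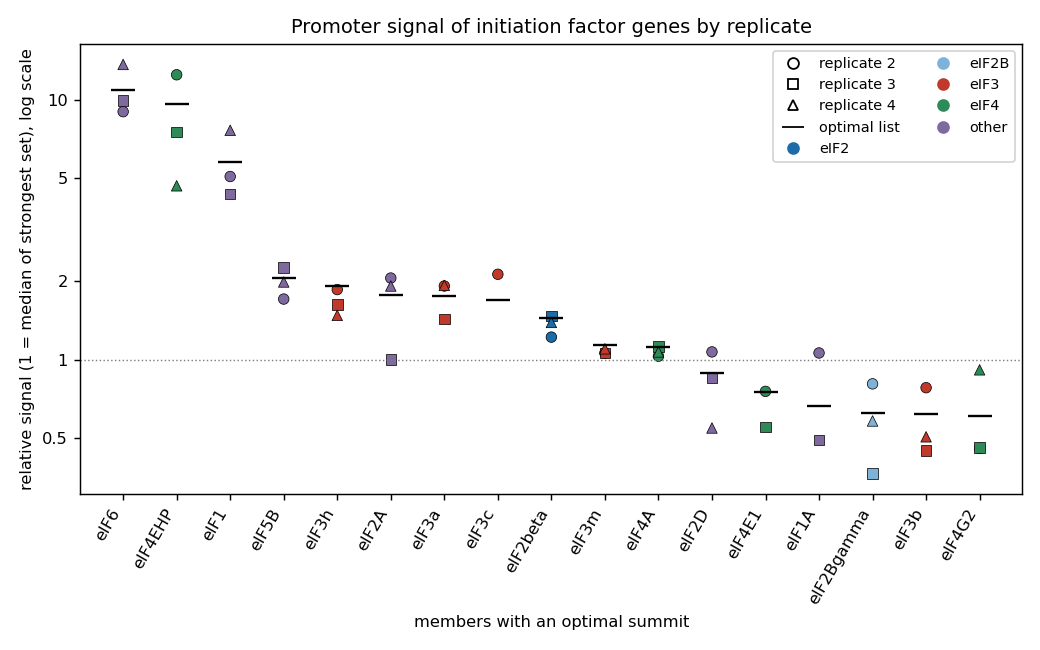
Relative signal (log scale, 1 is the median of the strongest set) of the strongest summit within 500 bp of a TSS for the 17 genes of the optimal list; symbols are replicates, bars the optimal list, and colours the complexes. eIF6, eIF4EHP and eIF1 lie above 4 in every replicate, and eIF3c is shown for replicate 2 alone.

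After these 3 genes the signal dropped to near that of a typical strong peak. eIF5B, the GTPase of subunit joining, had 1.71, 2.26 and 1.99 in replicates 2, 3 and 4 (1.99 ± 0.275, n = 3). eIF2A, a factor named for tRNA delivery independent of eIF2 in mammals, had 2.06, 1.00 and 1.92 (1.66 ± 0.573, n = 3), with replicate 3 the lowest. eIF2D, an alternative initiation and recycling factor, had 1.07, 0.848 and 0.545 (0.823 ± 0.266, n = 3). Across the 17 genes the relative signal in the optimal list ranged from 0.608 to 10.9 with a median of 1.45, beside a median of 1.20 over the 3643 protein-coding genes with an optimal summit. By gene rank, 3 of the 17 were in the top 10% of those genes and 8 in the lower 50%, so the set was spread over the range of strengths.

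eIF1A was listed in 2 of the 3 replicates. Its relative signal was 1.06 in replicate 2 with a summit 50 bp upstream, and 0.489 in replicate 3 with a summit 271 bp upstream. Replicate 4 listed no summit there. The optimal summit (rank 4894) also lay within reach of Vps39.

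Among the eIF3 genes, eIF3a and eIF3h were the strongest. eIF3a, the large subunit that anchors the complex, had a relative signal of 1.92, 1.43 and 1.93 in replicates 2, 3 and 4 (1.76 ± 0.283, n = 3). Its summit lay between the divergent start sites of eIF3a, 42 bp away, and CG1074, 28 bp away. eIF3h, a subunit with an MPN domain, had 1.86, 1.63 and 1.48 (1.66 ± 0.192, n = 3) at a summit in its own intron, 266 bp downstream of the nearer of its 2 TSSs, and a second optimal summit (rank 2494) at 1 bp from that TSS. eIF3m, a PCI-domain subunit, gave the most even values of the set, with 1.06, 1.06 and 1.10 (1.08 ± 0.0243, n = 3). eIF3b, which carries an RNA recognition motif, was weak with 0.779, 0.446 and 0.504 (0.576 ± 0.178, n = 3).

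eIF3c, a core subunit that contacts eIF1 and eIF5 in yeast and mammals, differed in its replicates from the other eIF3 genes with an optimal summit. Replicate 2 gave it a relative signal of 2.13, which was above that of eIF3a in the same replicate. Replicates 3 and 4 listed no summit within 500 bp, so that its rank of 1414 in the optimal list goes with a signal listed in 1 replicate.

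The eIF3 subunits that are encoded by paired, numbered genes had no optimal summit: 0 of 6 (eIF3d1, eIF3d2, eIF3f1, eIF3f2, eIF3g1 and eIF3g2), against 5 of 10 for the other eIF3 genes. All 6 have 1 TSS position, as do 5 of the other 10, of which 1 (eIF3a) had an optimal summit. The remaining 5 have 2 or more positions, and 4 of these had one. Over all protein-coding genes the shares were 20.5% with 1 position and 41.8% with 2 or more. In the d and f pairs the first copy was in more lists than the second. eIF3d1 had a relative signal of 0.425, 0.309 and 0.619 in replicates 2, 3 and 4, whereas eIF3d2 was listed in replicate 4 alone, at 0.336. eIF3f1 was listed in replicate 2 alone, at 0.762, and eIF3f2, eIF3g1 and eIF3g2 in no list. The remaining subunits eIF3e and eIF3j were listed in replicate 2 alone, eIF3l in replicate 2 and the pooled list, eIF3k in replicates 2 and 4 and the pooled list, and eIF3i in none.

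Of the eIF4 genes, eIF4A, the RNA helicase that unwinds mRNA leaders, had 1.03, 1.12 and 1.07 in replicates 2, 3 and 4 (1.07 ± 0.0450, n = 3). It had 2 optimal summits, 73 and 76 bp upstream of different TSSs, and the second (rank 4043) lay in the 5' UTR of a longer transcript. eIF4E1, the general cap-binding protein, had 0.754 and 0.550 in replicates 2 and 3 and was not listed in replicate 4. eIF4G2, a scaffold known for its role in the male germ line, had 0.455, 0.459 and 0.913 (0.609 ± 0.263, n = 3), at a summit inside an intron of CG34355 and 46 bp upstream of a TSS that CG33111 shares. The other scaffold gene, eIF4G1 on chromosome 4, was listed in replicate 2 alone, at 0.547.

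The cap-binding family held strong, weak and unlisted genes. Of its 7 genes, eIF4EHP and eIF4E1 had an optimal summit, eIF4E4 and eIF4E6 were in the pooled list at ranks 19911 and 9357, and eIF4E3, eIF4E5 and eIF4E7 were in no list. The pair eIF4H1 and eIF4H2, whose mammalian relative stimulates eIF4A, also lacked an optimal summit: eIF4H1 was listed in replicate 2 alone, at 0.269, and eIF4H2 in no list. eIF4B, which also stimulates eIF4A, was listed in replicates 3 and 4, at 0.715 and 0.511, and not in replicate 2.

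Apart from eIF2beta, the eIF2 and eIF2B genes had relative signals below 1 wherever a summit was listed, and each was in at least 1 list. eIF2beta, the subunit that contacts eIF5 and eIF2B, had a relative signal of 1.22, 1.47 and 1.39 in replicates 2, 3 and 4 (1.36 ± 0.127, n = 3) at a summit 291 bp upstream of its only TSS, and no other gene had a TSS within reach. eIF2alpha, the subunit that stress kinases phosphorylate, and eIF2gamma, which binds GTP and the tRNA, were listed in replicate 2 alone, at 0.342 and 0.934. eIF2Bgamma had 0.806, 0.364 and 0.580 (0.583 ± 0.221, n = 3), close to the lower end of the optimal list. eIF2Bdelta was not in that list, and had a pooled rank of 7481 and 0.667, 0.220 and 0.466 in replicates 2, 3 and 4. eIF2Balpha was listed in replicate 4 alone, at 0.452, and eIF2Bepsilon in replicate 2 alone, at 0.164.

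eIF2Bbeta stood next to one of the strongest peaks of the series without meeting the distance set for a promoter. Its own summit was weak, at 0.161 in replicate 2 and 0.214 in replicate 3 and not listed in replicate 4. The nearest optimal summit was 687 bp from its TSS, had rank 4 and a relative signal of 19.1 in the optimal list, and lay 32 bp from the TSS of Ugalt, which encodes a UDP-galactose transporter. For the 27 genes without an optimal summit, the nearest one was 687 bp to 591 kb away, with a median of 14.8 kb. It was within 2000 bp at 4 of them (eIF2Bbeta, eIF2Bdelta, eIF3d1 and eIF3g1), and over 10 kb away at 14.

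On X, 0 of 7 genes had an optimal summit (eIF2alpha, eIF2Bbeta, eIF2Bepsilon, eIF3g1, eIF4E7, eIF4H1 and eIF5), whereas 24.1% of all protein-coding genes on X did. The count on X was not a planned result, and with 7 genes it can lie far from that share. The full list of replicate 2 had a summit at 5 of the 7 (71.4%, against 58.7% of genes on X). That of replicate 3 had one at 1 (14.3%, against 44.7%) and that of replicate 4 at 0 (against 40.4%). The share of the 7 genes with a summit is thus low in replicates 3 and 4 and in the optimal list, and not in the full list of replicate 2. The signals listed there were weak, from 0.146 at eIF5 to 0.342 at eIF2alpha. Over all protein-coding genes listed in replicate 2, the lowest was 0.141 and the median 0.635. In the strongest set of each replicate, 0 of the 7 had a summit (against 29.2% of all protein-coding genes in replicate 2). The higher share in the full list of replicate 2 therefore rests on weak peaks. Optimal summits were found at 2 of 3 genes on 2L (against 25.6% of all protein-coding genes there), 5 of 9 on 2R (26.1%), 5 of 11 on 3L (27.4%), 5 of 13 on 3R (27.3%) and 0 of 1 on chromosome 4 (7.50%).

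A total of 9 genes (20.5%) were listed in replicate 2 and in no other list, beside 7.38% of all protein-coding genes. They were eIF2alpha, eIF2gamma, eIF2Bepsilon, eIF3e, eIF3f1, eIF3j, eIF4G1, eIF4H1 and eIF5, with relative signals from 0.146 to 0.934. Of these, 6 had a q-value of 0.01 or lower, and eIF2gamma and eIF3f1 were among the 5806 strongest peaks of that replicate. Replicate 2 also had the most peaks at that q-value, 13037 against 8464 in replicate 3 and 5138 in replicate 4. The part of this difference between replicates in the 9 genes was not tested.

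A summit in no list was found for 8 genes (18.2%), against 31.4% of all protein-coding genes. They were eIF3f2, eIF3g1, eIF3g2, eIF3i, eIF4E3, eIF4E5, eIF4E7 and eIF4H2. Only eIF3i, a WD-repeat subunit, is encoded by a gene without a numbered relative in the annotation, and each of the 8 has 1 annotated TSS position.

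The number of TSSs sets how many positions a summit can fall near. Of the 15 initiation factor genes with 2 or more TSS positions, 10 (66.7%) had an optimal summit, against 41.8% of all such genes. Of the 29 with 1 position, 7 (24.1%) did, against 20.5%. The share of initiation factor genes thus stood further above that of all genes where several TSSs were annotated.

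**Figure D4:**
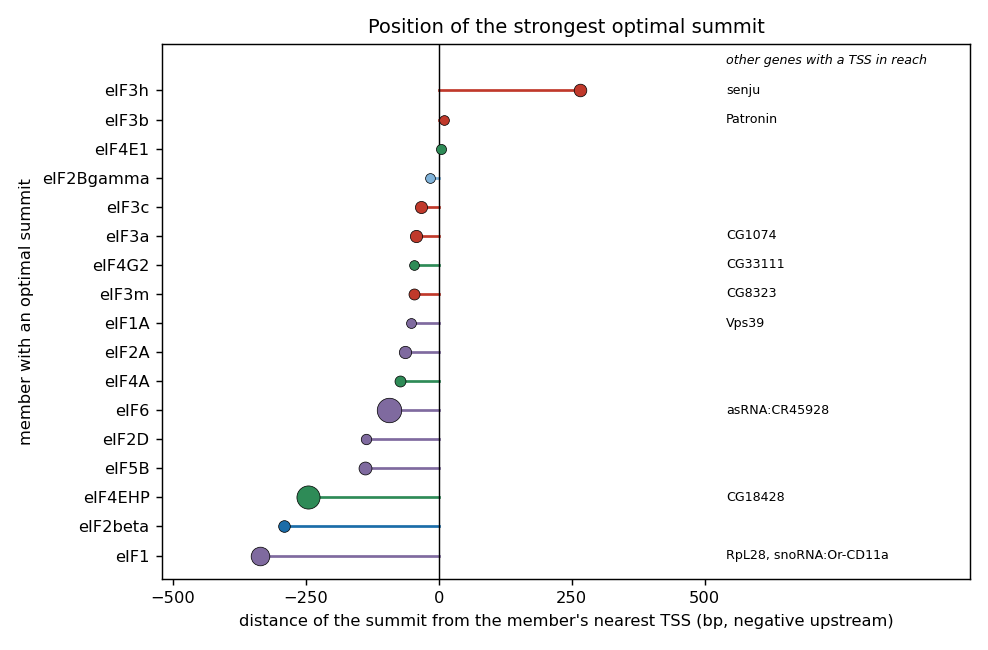
Signed distance (bp, negative upstream) of the strongest optimal summit from the nearest TSS of each of the 17 genes, with larger points for stronger signal and colours for complexes; the text at the right names other genes whose TSS is in reach. The summits lie from 336 bp upstream (eIF1) to 266 bp downstream (eIF3h), and the 3 strongest are each shared with another gene.

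By the rule used, every summit counted here lay within 500 bp of a start site. The median distance, without sign, was 63.0 bp over the 17 genes, beside 122 bp over all genes with an optimal summit. It was 136 bp for the 7 genes with 1 TSS position and 49.0 bp for the 10 with 2 or more. The distance over all genes was not split by the number of TSSs. The summit was upstream of the nearest TSS at 14 of the 17 (82.4%, against 86.6%), the exceptions being eIF3h, eIF3b and eIF4E1. At eIF2A and eIF5B that TSS is an inner one, and the summit lay inside the gene, in its own 5' UTR. At 9 of the 17 (52.9%, against 59.1%) the summit was also in reach of the TSS of another gene. When each summit was given only to the nearest TSS, 14 of the 44 genes (31.8%) kept one, against 19.4% of all genes, and those lost were eIF3a, eIF4EHP and eIF6.

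Away from start sites, optimal summits inside the gene and over 500 bp from every TSS were found at eIF4EHP and eIF5B (4.55% of the 44 genes, against 8.03% of all genes). Both are long genes for this set, at 45884 and 32320 bp, and each held 4 such summits, all intronic. The strongest at eIF4EHP, in a peak at chr3R:24099065-24099291, lay 9800 bp from its TSS and had a relative signal of 0.921, 2.02 and 2.36 in replicates 2, 3 and 4 (1.77 ± 0.754, n = 3). Replicate 2 was the lowest there, while it was the highest at the promoter of the same gene. The strongest at eIF5B, in a peak at chr3L:3432746-3432978, lay 27723 bp from its nearest TSS and had 1.71, 1.40 and 1.97 (1.69 ± 0.282, n = 3), near the value at its promoter. One more summit inside eIF4EHP was 65 bp from a TSS of Syx1A, which encodes a syntaxin and lies within the span of eIF4EHP.

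The DNA replication-related element was frequent at these genes. TATCGATA, searched on both strands, was in 12 of the 44 promoters (27.3%) from 250 bp before to 50 bp after the TSS, beside 8.94% of 13944 promoters of protein-coding genes. It was in 5 of the 17 promoters with an optimal summit, beside 13.9% of all promoters with one, and in 7 of the 27 without one, beside 7.18%. In windows reaching 100 bp to either side of the strongest summit it was at 5 of 17 genes (29.4%: eIF1, eIF2A, eIF3a, eIF4A and eIF6), beside 9.23% of 2611 such windows of protein-coding genes. The match is shown in capitals for 4 of these genes, with up to 27 bases to either side, because it lies within 43 bp of each summit. The dm6 positions are chr3L:3223019-3223079 (plus strand) for eIF1, chr3L:21824865-21824894 (plus) for eIF2A, chr3R:4433900-4433960 (minus) for eIF3a and chr2L:5981686-5981746 (plus) for eIF4A.
eIF1: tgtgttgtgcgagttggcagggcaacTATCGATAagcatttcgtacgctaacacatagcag
eIF2A: ttactatcgctTATCGATAcaccgcgtaca
eIF3a: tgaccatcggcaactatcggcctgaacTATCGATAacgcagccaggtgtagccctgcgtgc
eIF4A: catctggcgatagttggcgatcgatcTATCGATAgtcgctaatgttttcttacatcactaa
The centre of the match was 43 bp from the summit at eIF1, 22 bp at eIF2A, 7 bp at eIF3a and 24 bp at eIF4A. Relative to the gene's nearest TSS it lay 292 bp upstream at eIF1, 85 bp at eIF2A, 34 bp at eIF3a and 48 bp at eIF4A.

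The nuclear factor I palindrome (TTGGC and its reverse complement 5 bases apart) was in none of the 44 promoters and in 0.0430% of all promoters, and in none of the 2611 summit windows. TTGGCA, which holds the palindrome's first arm, was in 11 of 44 promoters (25.0%, against 21.4%) and in 3 of 17 summit windows (17.6%, against 14.2%), those of eIF1, eIF2beta and eIF3b. The motif CAGCTG was in 4 of 44 promoters (9.09%, against 17.9%) and GAGAGAG in 1 (2.27%, against 6.20%). TATAAA was in 20 (45.5%, against 45.3%) and GGTCACACT in 3 (6.82%, against 5.87%). CTTT within 5 bases of the TSS on the gene's strand, the core of the pyrimidine-rich start of many translation genes, was in 3 (6.82%, against 5.72%). The median GC content of the summit windows was 38.8% at the 17 genes and 36.8% over the 2611 windows, so the GC content of the windows was similar.

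Among 29 genes chosen as partners of the initiation factors (regulators, and factors of elongation, termination and recycling), 18 (62.1%) had an optimal summit, beside 26.1% of all protein-coding genes. The list was chosen with earlier results of these data known, so its share is not independent of them. Of the 29, 21 have 2 or more TSS positions and 14 of these had one, beside 41.8% of all such genes. Of the 8 with 1 position, 4 had one, beside 20.5%. By the role given in the chosen list, the genes with an optimal summit included 2 of 5 regulators of eIF4E (Thor and mxt). They also included 3 of 3 scaffold and poly(A) genes (NAT1, pAbp and Paip2). Of the genes placed under eIF2 kinases and response, 2 of 5 had one (Atf3 and PPP1R15). Of those placed under recycling and reinitiation, 5 of 6 had one (pix, MCTS1, Dp1, pelo and HBS1). The rest were 4 of 8 elongation genes and 2 of 2 termination genes. Whether each gene acts in the role given was not tested. The eIF2 kinase genes Gcn2 and PEK and the response factor crc were in the pooled list and not in the optimal one. 4E-T, cup and DENR were in no list.

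By signal in the optimal list, the strongest of them was Atf3, which encodes a bZIP transcription factor of stress and metabolism. Its relative signal was 8.07, 9.44 and 11.0 in replicates 2, 3 and 4 (9.50 ± 1.46, n = 3), a range that overlaps that of eIF6. eEF1gamma, a subunit of the exchange factor that recharges elongation factor 1, had 5.09, 5.93 and 7.38 (6.14 ± 1.16, n = 3), and Dp1, a KH-domain RNA-binding protein, 5.21, 4.40 and 4.32 (4.64 ± 0.491, n = 3). eEF2, the translocation factor, had 2.97, 2.92 and 3.16 (3.02 ± 0.129, n = 3). All 4 were listed in every replicate, and eEF2 varied the least.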

How the data were processed

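Peak lists were used as deposited. Per the deposited listings, they are in narrowPeak format on assembly dm6: 3 replicate lists, each made from 1 alignment and a shared control alignment, a pooled list, and an optimal list derived from these by the irreproducible discovery rate. The peak signal is the authors' deposited value, with no scale stated, and the deposited −log10 q-value was used only for counts at a q-value of 0.01. No aligner or peak caller is named in the labels or listings. The depth is unknown, so no counting interval was given.

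Summits were assigned to all TSSs within 500 bp (Ensembl release 115, BDGP assembly 6.54, which has dm6 coordinates), on the arms and chromosome 4. Each summit could count for several genes. Sequence was read from the RefSeq copy of the release 6 genome. The code (Python 3.11.15, pandas 2.3.3, numpy 2.4.6, matplotlib 3.10.9) was tested on simulated summits. Members, motifs and the partner list were chosen with earlier results of these data known. Of 32 partner names, 29 genes were matched, 2 of them by synonym, and Etf1 was unmatched. Genes named in full were the 12 with the highest mean relative signal, the strongest of each complex, near copies that differ, genes in no list, and the 4 partners with the strongest optimal summit (eEF1alpha1 had a mean of 3.06 over replicates, above the 3.02 of eEF2, but was below it in the optimal list). Nothing says whether the 3 biological replicates came from separate collections, and SDs measure only the spread between these libraries. No test between groups was possible with 1 group.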

Additional observations from a re-analysis of the deposited data

How the results depend on the processing

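Of 159 recomputed values, 120 stayed within their limits and 39 moved. Counts were held to a set ratio, signals and distances to an SD between replicates, and motif shares to a confidence interval. The tally is not a measure of robustness. For single genes the limit was the SD of the 3 replicates. Leaving out 1 replicate cannot change a mean by that much, so those values had to stay. Of 68 values for single genes, the 12 that moved were those divided by the median of all peaks. The 17 genes with an optimal summit became 11 with the 2903 strongest peaks of the list, and 10 to 11 when each replicate in turn was left out, which kept only genes that also had a summit among the strongest peaks of both other replicates. By complex, leaving out a replicate gave 0 to 1 for eIF2B, 3 to 3 for eIF3 and 2 to 2 for eIF4. For eIF2, 250 bp gave 0. For eIF2B, 1000 bp gave 3, 2000 bp gave 3 and the pooled list at q 0.01 gave 2. The count on X was not planned, and alternatives chosen after seeing the data gave 1 at 1000 bp, 2 at 2000 bp and 1 when any base of the peak counted. Genes among the strongest of all replicates (10) became 6 with the strongest 2000 peaks, 6 at 250 bp and 16 at 2000 bp. The median relative signal of the named genes (1.66) became 1.37 at 250 bp and, by construction, 5.60 when divided by the median of all peaks. At 250 bp, eIF1, eIF2beta, eIF3h and eIF4EHP were left out for want of a summit in every replicate. The other named genes kept their values, so this shift is a change in the genes counted. The median signed distance (-51.0 bp) became -83.0 bp with the list of replicate 3 alone. For the remaining shifts the cause was not tested. A −log10 q-value of at least 10 could not be required, since the highest in the optimal list is 4.09. No paired analysis was possible because there is 1 group.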
